A study of Mus musculus with 9 samples.

Results

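The paraventricular nucleus of the hypothalamus (PVN) and the regions around it each carry their own transcription factors. 9 such genes, Sim1, Otp, Pou3f2, Nr5a1, Fezf1, Nkx2-1, Foxb1, Tcf7l2 and Six6, were chosen by name as marks of PVN, ventromedial, mammillary, thalamic and forebrain cells. They are 9 of the 27179 genes listed, and all 9 passed the filter on low counts that left 17344 genes to test. Bulk RNA sequencing counts came from PVN punches of wild-type male C57BL/6J mice, 3 in each group, and all mice entered the diets at 5 weeks of age (postnatal day 35 in the labels). Control mice ate a chow with 16% of calories from fat for 12 weeks and drank tap water. HFD mice ate a diet with 60% of calories from fat for 12 weeks and drank tap water. HFD+Mino mice ate the same 60% diet for 12 weeks and were given the tetracycline antibiotic minocycline in the water, at 40 mg/kg per day, over the last 6 weeks. HFD against Control thus asks about the diet, HFD+Mino against HFD about the drug on that diet, and HFD+Mino against Control what the diet and the drug left different. No minocycline group on the Control diet was analysed here, and a punch can hold tissue from outside the nucleus.

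Transcription factors of this kind divide the hypothalamus during development, and many stay on in adult neurons as a record of where the cells lie. Sim1 is a bHLH-PAS factor that pairs with Arnt2 and is needed for PVN neurons to form, Otp is a homeodomain factor acting alongside it, and Pou3f2 (Brn2) is a POU factor that acts after them in the neurons that make vasopressin, oxytocin and corticotropin-releasing hormone. Loss of Sim1 function causes overeating and obesity in mice and people. Nr5a1 (SF-1), a nuclear receptor, and Fezf1, a zinc finger repressor, mark the ventromedial nucleus, and Nkx2-1 is the homeodomain factor of the basal hypothalamus. Foxb1, a forkhead factor, marks the mammillary region. Tcf7l2, an HMG-box factor through which Wnt signals reach their target genes, is strong in thalamus and habenula, and Six6 is a homeodomain factor of the suprachiasmatic area, the eye and the pituitary.

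The bases before an annotated start site are printed for Sim1 and Pou3f2, the pair of the 9 genes with the lowest permutation p for moving together, and for Tcf7l2, the most abundant gene of the 9. Sequences and positions are RefSeq's on GRCm38.p6, and 7 of the 9 genes had an entry in the promoter table. The start sites taken for Sim1 and Fezf1 lie inside the gene spans given below, which begin further upstream. The 250 bases before the start are written 5′ to 3′ on the gene's strand, and capitals mark matches, on either strand, to ACGTG (the core bound by Sim1 with Arnt2), TAATTA (a homeodomain core), the octamer of POU factors, CTTTGA (the TCF/LEF core) or AAGGTCA (the NR5A half-site).
Sim1, chr10:50895401-50895650, plus strand: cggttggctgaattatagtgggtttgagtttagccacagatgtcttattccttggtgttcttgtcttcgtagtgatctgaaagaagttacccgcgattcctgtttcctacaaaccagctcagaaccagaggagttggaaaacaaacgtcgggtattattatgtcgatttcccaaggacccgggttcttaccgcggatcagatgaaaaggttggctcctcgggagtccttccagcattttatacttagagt
Pou3f2, chr4:22488367-22488616, minus strand: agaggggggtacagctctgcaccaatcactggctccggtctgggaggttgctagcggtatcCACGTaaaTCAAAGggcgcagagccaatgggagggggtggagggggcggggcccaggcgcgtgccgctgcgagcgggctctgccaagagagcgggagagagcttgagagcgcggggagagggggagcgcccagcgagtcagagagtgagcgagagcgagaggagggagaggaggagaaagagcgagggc
Tcf7l2, chr19:55741560-55741809, plus strand: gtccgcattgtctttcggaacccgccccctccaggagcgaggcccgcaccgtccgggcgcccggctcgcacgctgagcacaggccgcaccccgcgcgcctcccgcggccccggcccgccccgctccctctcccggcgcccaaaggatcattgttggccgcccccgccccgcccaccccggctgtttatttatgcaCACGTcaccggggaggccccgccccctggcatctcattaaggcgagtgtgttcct
The Pou3f2 promoter held ACGTG from base -189 and CTTTGA from base -181, both read on the opposite strand. The main Tcf7l2 promoter held ACGTG from base -55, also on the opposite strand, and the Sim1 promoter held none of the 5 motifs. Of 32851 promoters of this length, 16.6% held ACGTG, 13.8% CTTTGA, 4.84% TAATTA, 4.08% AAGGTCA and 1.6% the octamer, and no other promoter of these 7 genes held any of them. G and C made up 45.6% of the Sim1, 66.8% of the Pou3f2 and 72.8% of the Tcf7l2 promoter, against a median of 52.4% over all promoters. A match is a run of letters and was not tested as a binding site.

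Total counts lay between 17728590 in HFD replicate 1 and 42326213 in Control replicate 1. Control replicate 1 stood apart from the other 8 samples in some of the genes that place a punch. It held 0.149 CPM (counts per 1000000 counted reads, scaled by the TMM method) of Avp and 0.77 CPM of Oxt, both PVN peptide genes, against 157 CPM or more and 427 CPM or more elsewhere. The summed oligodendrocyte markers reached 27800 CPM there, against 2130 to 6560 CPM elsewhere. Control replicate 2 was the highest in Pmch and Hcrt, the lateral hypothalamic peptide genes, at 2560 and 813 CPM. In HFD+Mino, Avp was at 28000 CPM in replicate 1, 22200 CPM in replicate 2 and 1220 CPM in replicate 3. The summed PVN peptides were at 129 to 2710 CPM in Control, 2910 to 3840 CPM in HFD and 3800 to 38000 CPM in HFD+Mino. So Avp and Oxt were well above 0 in 8 samples, while Avp, Oxt and Otp were at or near 0 in Control replicate 1. Of the other PVN peptide genes, Trh (5.49 CPM) and Sst (102 CPM) were also lowest there. Crh was not, at 20.6 CPM there, 18 CPM in Control replicate 2 and 14.4 CPM in HFD replicate 1. Otp was low in HFD+Mino as well, at 0.371 to 0.616 CPM.

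Sim1 lies on chromosome 10 at 50894698-50989156 on the plus strand, in 11 exons. It was at 0.77, 5.11 and 11.2 CPM in Control replicates 1 to 3, at 16.6, 10.8 and 21.6 CPM in HFD, and at 10.1, 35.7 and 2.51 CPM in HFD+Mino. HFD+Mino held the highest sample of all, while its replicate 3 was lower than all but Control replicate 1, and each pair of groups overlapped. The means were 5.69 ± 5.23 CPM in Control, 16.3 ± 5.42 CPM in HFD and 16.1 ± 17.4 CPM in HFD+Mino (SD, n = 3 each). The log2 fold change of HFD against Control was 1.52 with a standard error (SE) of 0.91, and the edgeR quasi-likelihood test with Benjamini-Hochberg adjustment gave an FDR of 0.373. Without Control replicate 1 the change was 1.00, and without Control replicate 3 it was 2.47. In a punch, fewer Sim1 cells and less Sim1 RNA per cell cannot be told apart, and the same holds for every gene below.

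Otp lies on chromosome 13 at 94875636-94885125 on the plus strand, in 3 exons. Its levels were 0, 0.875 and 2.77 CPM in Control, 1.15, 1.13 and 0.971 CPM in HFD, and 0.616, 0.371 and 0.519 CPM in HFD+Mino. The 0 is a count of 0 reads in Control replicate 1, which allows up to 0.0745 CPM (3 counts). All HFD+Mino samples were below all HFD samples, yet the Control samples spanned both. The log2 fold change of HFD+Mino against HFD was -1.10 with an SE of 1.11 (edgeR FDR 0.484). Otp summed to 47 reads in HFD+Mino and 101 in HFD.

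Pou3f2 is a gene of 1 exon on chromosome 4, at 22482095-22488366 on the minus strand. Its counts came to 11.4, 15.3 and 14.0 CPM in Control, 24.5, 28.6 and 38.0 CPM in HFD, and 34.9, 72.1 and 7.16 CPM in HFD+Mino. Every HFD sample was above every Control sample, while HFD+Mino held the highest and the lowest sample of all. HFD against Control differed by 1.17 on the log2 scale with an SE of 0.58 (edgeR FDR 0.287), and HFD+Mino against Control by 1.49 with an SE of 0.59 (edgeR FDR 0.188). Neither passed the call of an FDR under 0.01 with a 1.5-fold change. Without HFD+Mino replicate 3, HFD+Mino against Control was 1.98 and was called (edgeR FDR 0.0047), and without HFD+Mino replicate 2 it was 0.63 (edgeR FDR 0.548). HFD+Mino replicate 3 was also low in Sim1, at 2.51 CPM, and low in Pou3f4, a sister gene, at 0.328 CPM.

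**Figure D1:**
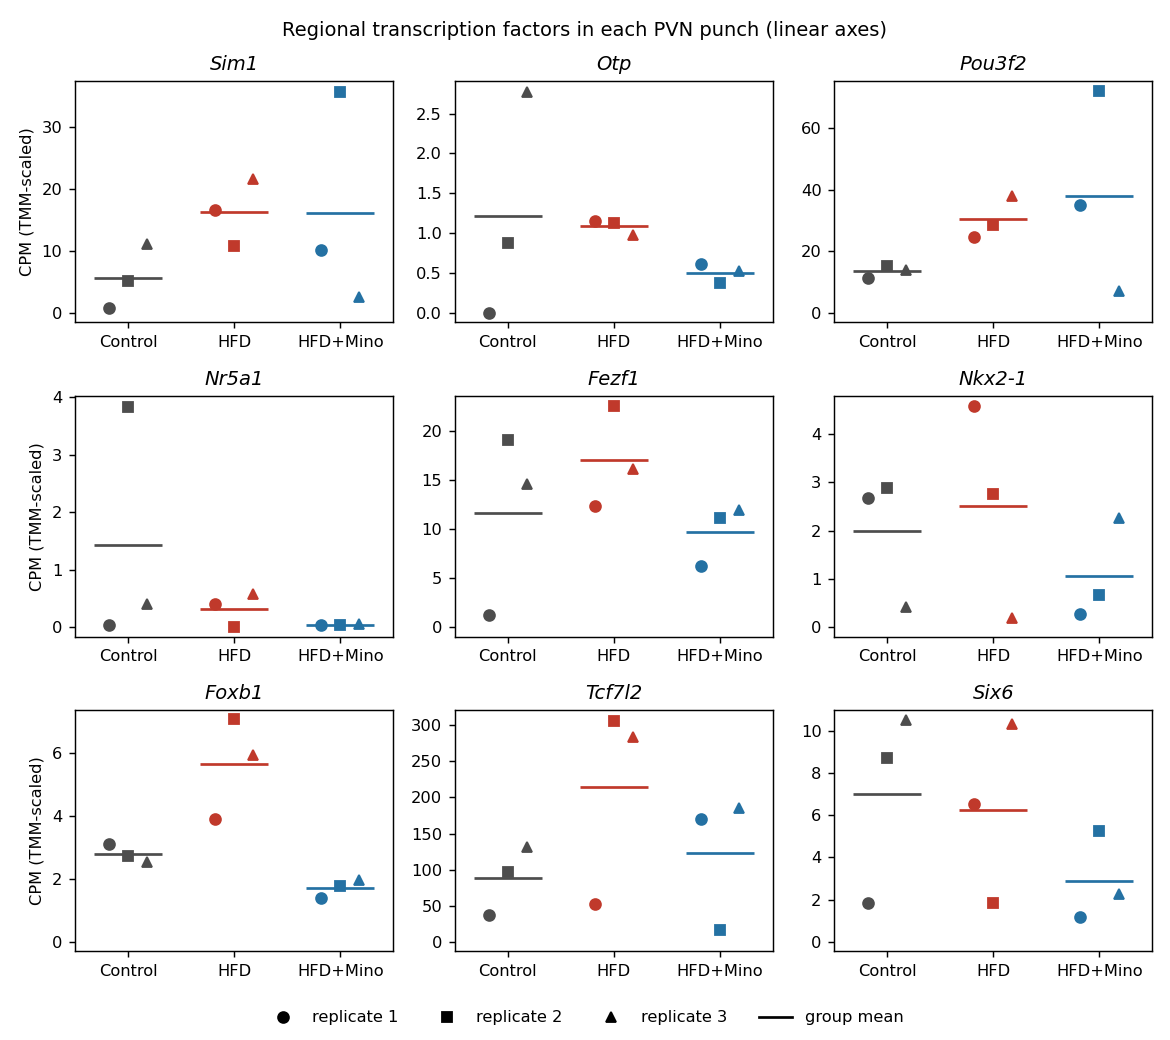
Levels of the 9 regional transcription factors in each PVN punch, in TMM-scaled CPM on linear axes, by group (Control, HFD, HFD+Mino, 3 mice each). Points are samples, with the replicate number as the shape, and the horizontal lines are group means. The HFD samples of Foxb1, at 3.92 to 7.08 CPM, sit above all others, and in Sim1, Pou3f2 and Tcf7l2 the HFD+Mino samples spread over most of the axis.

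Nr5a1, on chromosome 2 at 38692656-38714542 on the minus strand, was counted with few reads in all samples but 1. It had 2, 136 and 14 reads in Control, 8, 0 and 23 reads in HFD, and 1, 1 and 2 reads in HFD+Mino. The 136 reads of Control replicate 2, or 3.84 CPM, outnumbered all other samples together. The 0 of HFD replicate 2 allows up to 0.087 CPM (3 counts). The HFD+Mino group summed to 4 reads against 152 in Control, so that its fitted log2 change of -4.95 (SE 1.67, edgeR FDR 0.148) rests on few reads and depends on how the model treats low counts. With single samples left out that change lay between -5.52 and -2.32, the latter without Control replicate 2.

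Fezf1, the other ventromedial gene, lies on chromosome 6 at 23245044-23250936 on the minus strand. Its levels were 1.24, 19.1 and 14.6 CPM in Control, 12.3, 22.5 and 16.1 CPM in HFD, and 6.20, 11.1 and 11.9 CPM in HFD+Mino. Control replicate 1 was the lowest of the 9 samples, and all HFD+Mino samples lay below all HFD samples. The log2 fold change of HFD+Mino against HFD was -0.80 with an SE of 0.69 (edgeR FDR 0.402). HFD against Control was 0.55 and was 0.01 without Control replicate 1 and 1.13 without Control replicate 2. Nr5a1 had most of its reads in Control replicate 2, and Fezf1 was nearly as high there as in its highest sample, HFD replicate 2.

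Nkx2-1 lies on chromosome 12 at 56531935-56536908 on the minus strand. It was at 2.68, 2.88 and 0.412 CPM in Control, at 4.57, 2.76 and 0.199 CPM in HFD, and at 0.274, 0.669 and 2.27 CPM in HFD+Mino. Each group held high and low samples, and all groups overlapped. The log2 fold change was 0.32 in HFD against Control (SE 1.02), -1.20 in HFD+Mino against HFD (SE 1.04) and -0.88 in HFD+Mino against Control (SE 1.03), and none was called. With single samples left out they ran from -0.43 (without HFD replicate 1) to 0.86 (without HFD replicate 3), from -2.39 (without HFD+Mino replicate 3) to -0.45 (without HFD replicate 1), and from -2.08 (without HFD+Mino replicate 3) to -0.43 (without HFD+Mino replicate 1).

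Foxb1 gave the steadiest values. It lies on chromosome 9 at 69757710-69760940 on the minus strand, in 2 exons. Foxb1 stood at 3.13, 2.74 and 2.53 CPM in Control, at 3.92, 7.08 and 5.95 CPM in HFD, and at 1.40, 1.78 and 1.97 CPM in HFD+Mino. No pair of groups overlapped, and HFD was above Control and HFD+Mino below it. HFD+Mino against HFD was -1.72 on the log2 scale with an SE of 0.37 (95% interval -2.52 to -0.91), and the edgeR FDR of 0.0117 missed the threshold of 0.01. HFD against Control was 1.01 with an SE of 0.36 (edgeR FDR 0.135), and HFD+Mino against Control was -0.70 with an SE of 0.36 (edgeR FDR 0.281). DESeq2 called HFD+Mino against HFD at an adjusted p of 7.35e-05. So did edgeR with a block on the replicate number in Control and HFD+Mino (-1.72, FDR 0.0051). That block was chosen once these data had been seen, and the labels do not say what the number marks. The replicate block over all groups did not call Foxb1. Over the 20 alternatives tried, the change lay between -1.92 and -1.52 and the FDR between 7.35e-05 and 0.0585.

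Foxb1 counts can mix with those of another gene. Its exons share 418 bases with B230323A14Rik, an antisense transcript, the library kit keeps no strand, and reads from the shared bases cannot be assigned to either gene. B230323A14Rik had 280, 147 and 131 reads in Control, 66, 107 and 90 in HFD, and 155, 143 and 102 in HFD+Mino. Some list sums were also highest in HFD, those of a pair of glial cell types among them. The summed oligodendrocyte precursor markers were 66.9 to 81.1 CPM in HFD, 31.6 to 53.8 CPM in Control and 29.8 to 34.8 CPM in HFD+Mino. The summed astrocyte markers were 2100 to 2220 CPM in HFD, 1560 to 1720 CPM in Control and 961 to 1510 CPM in HFD+Mino. Slc1a3 held a mean of 1380 CPM of the astrocyte sum in HFD. In HFD against Control 4 of the 5 astrocyte genes were higher, and Gfap was lower (means 172 against 266 CPM). Telencephalic marker genes summed to 266 to 272 CPM in HFD, 87 to 136 CPM in Control and 45.7 to 123 CPM in HFD+Mino. Suprachiasmatic factors summed to 129 to 143, 74.2 to 94.6 and 62.8 to 87.8 CPM in the same groups. The part of any of these lists in the Foxb1 difference was not tested.

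Tcf7l2 lies on chromosome 19 at 55741797-55933659 on the plus strand and has 22 transcripts in GENCODE M21, which a count per gene does not separate. It was the most abundant of the 9 genes. Its levels were 36.9, 96.2 and 131 CPM in Control, 53.0, 306 and 283 CPM in HFD, and 170, 16.1 and 185 CPM in HFD+Mino. Both the HFD and the HFD+Mino group held 2 high samples and 1 low sample. The means of 87.9 ± 47.5, 214 ± 140 and 123 ± 93.3 CPM (SD, n = 3 each) overlapped in every pair of groups. The log2 fold change of HFD against Control was 1.28 with an SE of 0.81 (edgeR FDR 0.400), and leaving out single samples gave 0.92 (Control replicate 1) to 1.75 (HFD replicate 1).

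Six6 lies on chromosome 12 at 72939882-72944899 on the plus strand, and its exons share 192 bases with 4930447C04Rik on the other strand, so that the counts can mix in the same way. 4930447C04Rik was at 2.9 to 10.1 CPM over the 9 samples. Six6 was at 1.86, 8.70 and 10.5 CPM in Control, at 6.53, 1.83 and 10.3 CPM in HFD, and at 1.20, 5.24 and 2.29 CPM in HFD+Mino. All groups overlapped. The largest difference was HFD+Mino against Control, at -1.27 on the log2 scale with an SE of 0.75 (edgeR FDR 0.339).

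Between genes, levels were compared per kilobase of exon. Over all 9 samples Tcf7l2 came to 16.2 ± 11.8 CPM per kilobase (SD, n = 9), followed by Fezf1 at 5.31 ± 2.66, Pou3f2 at 4.89 ± 3.56, Sim1 at 1.47 ± 1.26, Six6 at 1.34 ± 0.945, Foxb1 at 1.14 ± 0.652, Nkx2-1 at 0.653 ± 0.540, Otp at 0.324 ± 0.272 and Nr5a1 at 0.142 ± 0.291 CPM per kilobase. No neighbours in this order differed by more than the larger of their SDs. Tcf7l2 was first and Nr5a1 last in each of the 3 groups. Sim1 was the seventh in Control, at 0.660 CPM per kilobase, and the fourth in HFD and in HFD+Mino, at 1.89 and 1.87 CPM per kilobase. So the ventromedial Fezf1 and the thalamic Tcf7l2 were above Sim1 in every group's mean.

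None of the 9 genes was called in any comparison by edgeR, where a call needs an FDR under 0.01 and a change of at least 1.5-fold. Over all genes tested, 1.74% were called in HFD against Control, 4.15% in HFD+Mino against HFD and 0% in HFD+Mino against Control. The 3-way test asks for any difference among the 3 groups, and a call also needs HFD to be the highest or lowest group and at least 1.5-fold from their mean. In it, 2.13% of all genes and 0 of the 9 were called, and Foxb1 had the lowest FDR at 0.0224. At an unadjusted p under 0.05, edgeR counted 1, 1 and 2 of the 9 genes in the 3 pairwise comparisons, against 20.5%, 41.3% and 21.3% of all genes, and 2 of 9 in the 3-way test against 39% of all genes. DESeq2 counted 2, 1 and 2 of the 9 genes at that level, and 4030, 7671 and 4166 of the 17344 genes tested. It called Foxb1 alone of the 9, in HFD+Mino against HFD and in the 3-way test. In HFD against Control, DESeq2 called 1198 of all genes and edgeR 302. In HFD+Mino against Control, where edgeR called 0 genes, DESeq2 called 276 and edgeR with the replicate block in Control and HFD+Mino called 551, with none of the 9 among them. Of the 9 genes, 6 were higher in HFD than in Control (median log2 change 0.55, and 0 over all genes). In HFD+Mino, 8 of the 9 were lower than in HFD (median -1.10, and 0.01 over all genes). The comparisons share their groups, so these shifts are not separate results.

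Groups without overlap were counted too. In HFD against Control, 2 of the 9 genes did not overlap (Pou3f2 and Foxb1), and 35.7% of all genes tested did not overlap either. In HFD+Mino against HFD, 3 did not (Otp, Fezf1 and Foxb1), with 46.7% of all genes. In HFD+Mino against Control only Foxb1 did not, with 19.1% of all genes. The HFD samples lay beyond all 6 other samples in 1 of the 9 genes, Foxb1, and in 23.0% of all genes. Each of these shares of the 9 genes was below that of all genes.

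**Figure D2:**
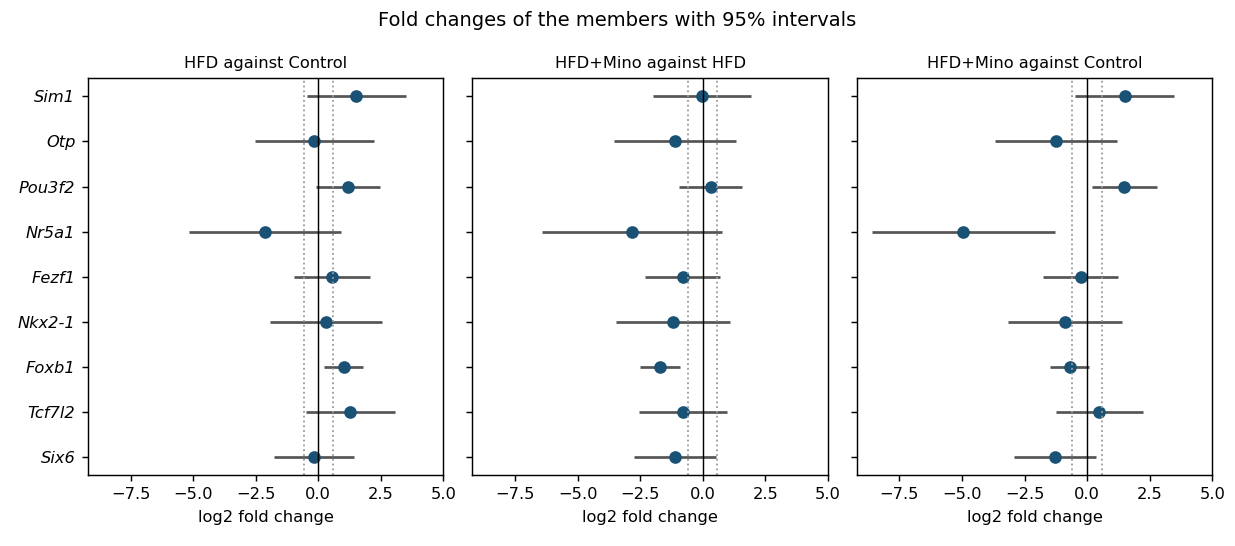
Log2 fold changes of the 9 genes in the 3 comparisons, from the edgeR fit on all 9 samples. Points are estimates, bars are 95% intervals, and dotted lines mark a 1.5-fold change either way. The intervals of Foxb1 are short, from -2.52 to -0.91 in HFD+Mino against HFD, and those of Nr5a1 are long, from -8.61 to -1.29 in HFD+Mino against Control.

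The samples of 1 group differed widely in 8 of the 9 genes. The residual SD of log2 CPM about the group means had a median of 0.44 over all genes tested, and of 0.42 over genes in the range of CPM of the 9. It was 1.83 for Nr5a1, 1.75 for Nkx2-1, 1.66 for Otp, 1.59 for Sim1, 1.52 for Tcf7l2, 1.29 for Fezf1, 1.23 for Six6 and 1.01 for Pou3f2. Those 8 genes were more variable than 88.2% to 99.3% of all genes tested. Foxb1, with 0.30, was more variable than 25.4%. In some of the 8 more variable genes 1 sample carried the spread. Without Control replicate 1, the SD fell to 0.44 for Fezf1 and 0.55 for Otp, and without HFD+Mino replicate 3 it fell to 0.41 for Pou3f2. It stayed above 1 for Sim1, Nr5a1, Nkx2-1, Tcf7l2 and Six6, whichever sample was left out. The log2 SD was smaller in HFD than in Control for 5 of the 9 genes, as in Otp (0.13 against 2.85) and Sim1 (0.51 against 1.93), and larger for 4, as in Nkx2-1 (2.22 against 1.49) and Tcf7l2 (1.43 against 0.95). Over all genes tested, the median SD was also smaller in HFD, at 0.22 against 0.36. Control replicate 1 was the lowest sample in both Otp and Sim1.

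Pairs of the 9 genes were tested for moving together over the 9 samples, with an exact permutation test of Pearson's r on log2 CPM for 36 pairs. None passed an adjusted p of 0.05, and 3 had an unadjusted p under 0.05. Sim1 and Pou3f2 had r = 0.818 (permutation p = 0.0062, adjusted 0.182) and Spearman's rho = 0.783 (permutation p = 0.0172), with r between 0.758 and 0.897 when single samples were left out and 0.801 without the 2 samples farthest in Sim1. Nr5a1 and Six6 had r = 0.777 (permutation p = 0.0126, adjusted 0.182) and rho = 0.867 (permutation p = 0.00451). Without the 2 samples farthest in Nr5a1, r was 0.813. Nr5a1 had at most 2 reads in Control replicate 1, HFD replicate 2 and every HFD+Mino sample. Its log2 values there depend on the prior count, and their order rests on few reads. Otp and Fezf1 had r = 0.872 (permutation p = 0.0152, adjusted 0.182) and rho = 0.683 (permutation p = 0.0503), but this r fell to 0.423 without Control replicate 1, on which it rests. As deviations from group means the 3 pairs had r of 0.75, 0.73 and 0.862. Within a group of 3 samples no correlation was computed.

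**Figure D3:**
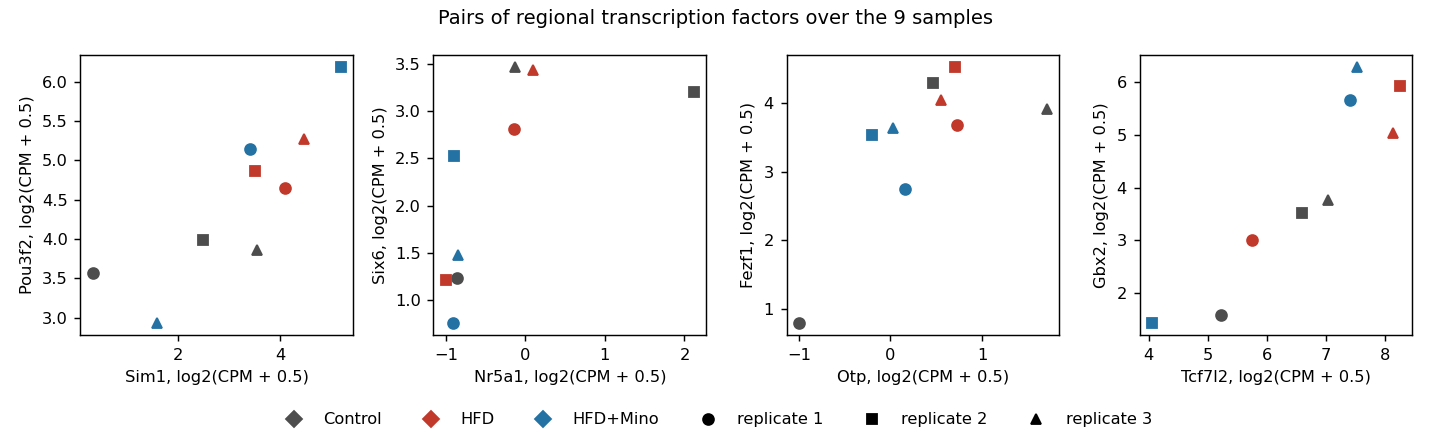
Levels of 4 pairs of genes over the 9 samples, each as log2(CPM + 0.5), with colour for the group and shape for the replicate number. Sim1 against Pou3f2 (r = 0.818), Nr5a1 against Six6 (r = 0.777) and Otp against Fezf1 (r = 0.872) are the 3 closest pairs by permutation p, and the low point of Otp and Fezf1 is Control replicate 1. Tcf7l2 against Gbx2 (r = 0.923) shows a thalamic pair.

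Some of the 9 genes ran with other genes of their own region, and others ran closer to genes of other lists. These values describe 9 punches that differ in depth, and no test was made. Where each punch was cut is not given in the sources used here, and its part was not tested. Tcf7l2 followed Gbx2 (r = 0.923), Ntng1 (0.922) and Lhx9 (0.913), all strong in thalamus. HFD+Mino replicate 2, with the lowest Tcf7l2, also had the lowest Gbx2 and Lhx9, at 2.19 and 1.71 CPM. Prkcd (r = 0.132) and Pou4f1 (-0.45), also listed for thalamus or habenula, did not follow Tcf7l2. Sim1 followed its partner Arnt2 (r = 0.833), Nhlh2 (0.820, of the ventromedial and arcuate list), Oxt (0.815) and Avp (0.805). Control replicate 1 was the lowest sample in Sim1, Oxt and Avp alike, and r without it was not computed for these pairs. Sim2, a relative of Sim1 on the PVN list, ran against both Sim1 (r = -0.643) and Pou3f2 (-0.784). Pou3f2 followed Crh (r = 0.693), the gene of corticotropin-releasing hormone. Nr5a1 and Six6 both followed Isl1 (r = 0.892 and 0.808), a LIM factor of arcuate neurons, though Nr5a1 had few reads in most samples. Foxb1 followed Prox1 (r = 0.842), Rorb (0.785) and Tbx3 (0.783), and none of the mammillary genes on its list was among its 4 closest. Nkx2-1 followed Adcyap1 (r = 0.819) and Lhx6 (0.744), the latter a factor of forebrain interneurons. Fezf1 was closest to Cbln1 (r = 0.825), listed for thalamus, ahead of Nhlh2 (0.487), of its own list. Otp was closest to Neurod2 (r = 0.816), listed for telencephalon, ahead of the PVN peptide gene Trh (0.74). Neurod2 had 5 to 33 reads per sample. Control replicate 1 was also the lowest sample in Fezf1, Cbln1, Otp, Neurod2 and Trh, and r without it was not computed for these pairs either.

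**Figure D4:**
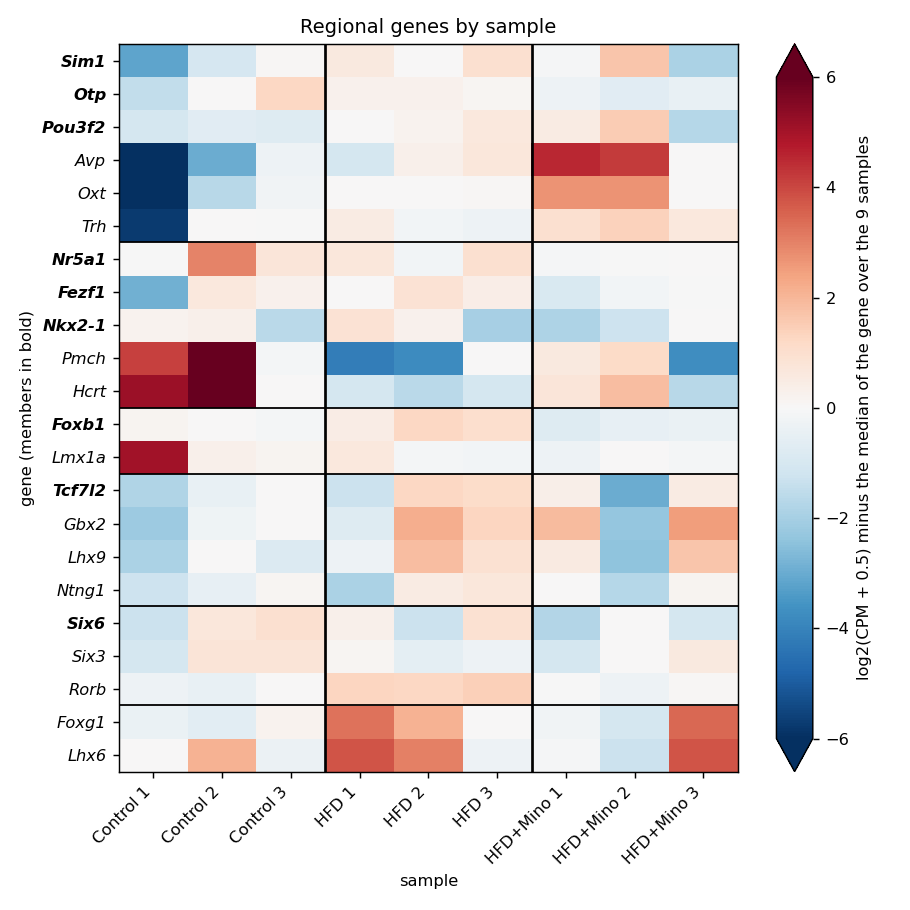
The 9 genes (bold) with other genes of the same or neighbouring regions in each sample, as log2(CPM + 0.5) minus the gene's median over the 9 samples, red above and blue below it, with colours ending at 6 either way. Rows run from PVN over ventromedial and lateral, mammillary, thalamic and suprachiasmatic to telencephalic genes. Control replicate 1 is low in Sim1, Otp, Avp and Oxt, and Tcf7l2, Gbx2 and Lhx9 are low together in HFD+Mino replicate 2.

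Over all genes tested with a mean of at least 5 CPM, the closest to each of the 9 were mostly genes on none of the regional lists. By Pearson's r of log2 CPM over the 9 samples, Sim1 was nearest to Zfp608 (0.968), Ccdc80 (0.968) and Bend4 (0.967), Otp to Lonrf2 (0.937), Pou3f2 to Ubxn2b (0.961), Fezf1 to Ldb2 (0.970), Foxb1 to Map4 (0.972), Tcf7l2 to Rtn4rl1 (0.967), Six6 to A930017M01Rik (0.929) and Nkx2-1 to Gtf2h4 (0.844). Nr5a1 was nearest to Isl1 (0.892), of its own list. These are the top values of 11858 or more candidates per gene, given as likeness only.

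The other factors of each region were read from lists. Of the 5 PVN factors, 0 were called in any comparison, and the median log2 change was 0.80 in HFD against Control, -0.02 in HFD+Mino against HFD and 0.43 in HFD+Mino against Control. Arnt2, with 162 ± 11 CPM in HFD against 92.9 ± 31 CPM in Control (SD, n = 3 each), differed by 0.80 on the log2 scale (edgeR FDR 0.136). Of the 12 ventromedial and arcuate factors, 10 were tested and 0 called, with medians of 0.21, -0.53 and -0.29 in the same order. Of the 8 mammillary factors, 4 were tested and 0 called, with medians of 0.07, -0.86 and -0.53. Among the untested ones, Lmx1a, Foxa1 and Barhl1 stood at 19.3, 13 and 3.97 CPM in Control replicate 1. They were at 0.753 CPM or less elsewhere, and Lmx1b was at 0.251 CPM or less throughout. Of the 8 thalamic and habenular factors 0 were called (medians 1.01, -0.58 and 0.58), and of the 7 prethalamic ones 0 (medians -0.31, -0.73 and -0.88). Of the 9 telencephalic factors, 8 were tested and 0 called (medians 0.31, -0.20 and 0.51).

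The suprachiasmatic list, which holds Six6, had the only regional factor called. Rorb, an orphan nuclear receptor tied to the circadian clock, was at 20.5, 18.5 and 25.5 CPM in Control, 62.9, 61.8 and 68.8 CPM in HFD, and 25.2, 20.7 and 27.2 CPM in HFD+Mino. HFD stood clear of all other samples. Rorb rose by 1.58 on the log2 scale in HFD against Control (SE 0.22, edgeR FDR 0.00219) and fell by 1.41 in HFD+Mino against HFD (SE 0.22, edgeR FDR 0.00409). The first call was lost without Control replicate 1, Control replicate 2 or any single HFD sample (edgeR FDR up to 0.0221, change 1.5 to 1.72). The second was lost without Control replicate 2, HFD+Mino replicate 1 or any single HFD sample (edgeR FDR up to 0.032, change -1.49 to -1.30), and also with the trend on exon length removed (-0.80, FDR 0.0182). The other 5 genes of that list, Six6 among them, were not called, and the list's medians were -0.16, -0.96 and -0.68.

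Of the 4 POU class 3 genes, the family of Pou3f2, Pou3f1 alone was called. Pou3f1, a factor known from Schwann cells and cortex, was at 12.4, 4.71 and 5.59 CPM in Control, 0.903, 0.609 and 0.996 CPM in HFD, and 2.29, 1.15 and 4.26 CPM in HFD+Mino. All HFD samples lay below all others, whereas every HFD sample of Pou3f2 was above every Control sample. Pou3f1 fell by 3.17 on the log2 scale in HFD against Control (SE 0.57, edgeR FDR 0.00971), close to the threshold of 0.01, while Pou3f3 and Pou3f4 stood at -1.03 and 0.47 and were not called. Its call was lost without any single Control or HFD sample and without HFD+Mino replicate 1, with edgeR FDRs up to 0.0594, while the change stayed between -3.42 and -2.62. The list's median was -0.28 in HFD against Control, 0.56 in HFD+Mino against HFD and 0.29 in HFD+Mino against Control.

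Of the 6 genes listed for TCF/LEF factors and the Wnt readout, 0 were called. Lef1, a relative of Tcf7l2 also strong in thalamus, was at 7.62 to 13.8 CPM in Control, 5.92 to 15.4 CPM in HFD and 2.60 to 7.35 CPM in HFD+Mino. Axin2, a common target of Wnt signals, was at 2.31 to 3.86 CPM in Control, 3.92 to 5.19 CPM in HFD and 5.22 to 8.35 CPM in HFD+Mino, without overlap between any 2 groups. Its log2 change was 1.13 in HFD+Mino against Control (SE 0.34, edgeR FDR 0.133). The list's medians were 0.16, -0.37 and -0.56. None of the 5 PVN peptides was called either, with medians of 0.66, 1.42 and 1.74. Of the 9 factors, Pou3f2 alone had its group means in the same order as Avp. They were 13.5, 30.4 and 38.0 CPM in Control, HFD and HFD+Mino, against 383, 1350 and 17100 CPM of Avp. The SD in HFD+Mino was 32.6 CPM for Pou3f2 and 14100 CPM for Avp. Sim1 missed that order narrowly, at 5.69, 16.3 and 16.1 CPM, and none of the 3 genes was called.

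The marker lists for neighbouring nuclei and for cell types, 11 lists with 60 genes, all tested, held 2 called genes, both higher in HFD. Cspg4 (NG2), a proteoglycan of oligodendrocyte precursors and pericytes, was at 5.81 to 7.77 CPM in Control, 19.5 to 22.4 CPM in HFD and 5.41 to 7.24 CPM in HFD+Mino. It rose by 1.62 on the log2 scale in HFD against Control (edgeR FDR 0.00449) and fell by 1.71 in HFD+Mino against HFD (edgeR FDR 0.00354). Camk2a, a kinase abundant in forebrain excitatory neurons, was at 42.8 to 69.2 CPM in Control, 226 to 233 CPM in HFD and 27.6 to 84.5 CPM in HFD+Mino. It rose by 2.09 in HFD against Control (edgeR FDR 0.00734) and fell by 1.98 in HFD+Mino against HFD (edgeR FDR 0.0076). All 4 calls were lost without any single HFD sample. In HFD against Control, both calls were also lost without Control replicate 1 or Control replicate 2, and that of Camk2a without Control replicate 3 or HFD+Mino replicate 1. In HFD+Mino against HFD, both were also lost without HFD+Mino replicate 1, and that of Camk2a without Control replicate 2. The highest edgeR FDR was 0.051 and the changes kept their direction.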

How the data were processed

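RNA was taken from PVN punches of 9 mice and made into cDNA libraries with the SMARTer Ultra Low Input RNA kit and Nextera XT, which do not mark strand. The authors aligned reads to mm10 (GRCm38) by HISAT2, counted them over genes by featureCounts, and deposited those counts as whole numbers without normalization. Tool versions and the treatment of shared or multiply mapped reads are not given in the sources used here. All 9 columns were mapped to samples by the labels.

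Counts were scaled by TMM, filtered with filterByExpr and fitted in edgeR 4.0.16 (R 4.3.3) as 1 model of 3 groups. Each comparison was tested over all 17344 genes by the quasi-likelihood test with Benjamini-Hochberg adjustment. CPM use TMM-scaled library sizes. A call needs an FDR under 0.01 and a 1.5-fold change, the rule of the study's 3-way analysis. DESeq2 1.42.0 was the other tool. Log2 CPM for spread and correlation used a prior count of 2, and correlations were tested by permutation (numpy 2.4.6). The scripts were tested on simulated data.

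The 9 genes, the lists and the tests were chosen with earlier results of these data known. Of the mammillary list, 1 gene is not reported here and was left out of the list's counts and medians. All 9 regional factors are named, and the 3 genes most like each of the 9 were ranked. Genes of the lists of transcription factors, POU and TCF/LEF genes and PVN peptides are named where called or needed for a range. Cspg4, Camk2a, Slc1a3 and Gfap, of marker lists, and the untested mammillary genes were added after their values were seen. Control and HFD+Mino samples with the same replicate number deviated together from their group means (r = 0.135, 0.163 and 0.292), and other pairs of groups did not (r from -0.152 to -0.00624). The labels do not say what the number marks. The methods describe the 3 mice per group as independent. Limits on counts of 0 (3 counts) and SEs from counts cover counting and spread between these samples only.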

Additional observations from a re-analysis of the deposited data

How the results depend on the processing

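The 27 fold changes of the 9 genes were recomputed under 11 alternatives and with each of the 9 samples left out, 532 values in all, of which 505 kept their direction and their side of the threshold. The number of the 9 genes called stayed 0 in HFD against Control throughout. In HFD+Mino against HFD it was 1 (Foxb1) with DESeq2, an FDR threshold of 0.05, a mean count of at least 50 (7 genes tested), and a replicate block restricted to the Control and HFD+Mino samples, which was added once the data had been seen, and 0 to 1 with single samples left out (1 without HFD+Mino replicate 3). In HFD+Mino against Control it was 0, and 0 to 1 with single samples left out (1, Pou3f2, without HFD+Mino replicate 3). In the 3-way test it was 1 (Foxb1) with DESeq2 and at an FDR threshold of 0.05. With the replicate block over all groups 0 were called, and with it HFD against Control became 0.34 for Otp and 0.15 for Six6 and HFD+Mino against Control 0.12 for Fezf1, while the restricted block gave 0.51, 0.13 and 0.30 and turned Pou3f2 in HFD+Mino against HFD to -0.02. With the trend on exon length removed, Sim1 in HFD+Mino against HFD was 0.54. None of these turned values was called, and the cause was not tested.

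Leaving out single samples moved HFD against Control from -0.75 to 1.31 for Otp, -2.94 to 0.51 for Nr5a1, -0.43 to 0.86 for Nkx2-1 and -0.77 to 0.26 for Six6. It moved HFD+Mino against HFD from -1.38 to 0.49 for Sim1 and -0.53 to 0.81 for Pou3f2, and HFD+Mino against Control from -1.85 to 0.21 for Otp and -0.79 to 0.30 for Fezf1. The number of pairs with an adjusted p under 0.05 stayed 0 of 36 throughout. Over all genes, calls depended on single samples: 302 in HFD against Control became 59 to 550, 719 in HFD+Mino against HFD became 29 to 3815, 369 in the 3-way test became 3 to 2396, and 0 in HFD+Mino against Control became up to 1120. Under the other alternatives the same counts ran from 284 to 1198, 406 to 4757, 367 to 2366 and 0 to 551, the last with the restricted block. With 3 mice per group, the 95% intervals of all 27 changes reached beyond 1.5-fold. Of the other genes tested by name, Rorb and Pou3f1 kept their calls in HFD against Control under all 11 alternatives other than leaving out a sample, and the calls lost without single samples stand beside their values. With the trend on exon length removed, Cspg4 was not called in HFD against Control (1.17) or in HFD+Mino against HFD (-1.10), nor was Camk2a in the latter (-1.5), which also lost its call with only the 6 samples compared (-1.99).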
